A study of Mus musculus with 30 samples.

Results

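The 40 genes described here charge transfer RNAs with amino acids, answer to amino acid shortage through the transcription factor ATF4, or make and import amino acids. They were taken as a list of symbols chosen with earlier results of these data known. All 40 were found among the 55401 gene identifiers of the count table. The list held 19 cytosolic aminoacyl-tRNA synthetases, 3 proteins that hold synthetases in a complex (Aimp1, Aimp2 and Eef1e1), 9 stress regulators (Dele1, Atf4, Atf5, Ddit3, Ddit4, Trib3, Chac1, Ppp1r15a and Cebpb) and 9 genes of amino acid supply (Asns, Psat1, Phgdh, Shmt2, Mthfd2, Slc7a5, Slc7a1, Slc3a2 and Pck2). For each of 30 lines, RNA was counted by digital gene expression, in which reads come from the 3′ end of transcripts. All lines derived from the mouse lymphoma line Eµ-Myc; p19ARF-/-, a B cell line in which a transgene drives Myc from the immunoglobulin heavy chain enhancer and p19ARF is deleted. The labels named 12 DMSO lines, 17 Paclitaxel lines and 1 Parental line, with 1 library per line. Paclitaxel stabilises microtubules. Wells of 10000 cells were given paclitaxel at a dose set to kill 85% of cells in 3 days, or the matching DMSO, then recovered for 4 days without drug, and this was repeated over 12 to 18 weeks. Each line was thus a separate culture of 1 starting line, and no line was sequenced more than once.

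Aminoacyl-tRNA synthetases join each amino acid to its transfer RNA and so set the supply for the ribosome. When an amino acid runs short, uncharged transfer RNA activates the kinase GCN2, which phosphorylates the initiation factor eIF2, slows translation in general and raises translation of Atf4. ATF4 then drives transcription of many cytosolic synthetases, of asparagine and serine synthesis enzymes and of amino acid transporters. DELE1 carries a signal from stressed mitochondria to another eIF2 kinase, HRI, and so feeds the same pathway.

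Library totals ran from 480919 counts, in the library labelled Pac C1, to 6739131, in the library labelled DMSO 11. Abcb1b, a drug efflux pump gene used as a check of the labels, stood at 15.9 to 69.8 counts per 1000000 counts (CPM) in the lines labelled DMSO and at 26.1 to 257 CPM in those labelled Paclitaxel. The highest of the DMSO values was that of DMSO 12 and the lowest of the Paclitaxel values that of Pac H9. Over all genes tested, 10 of 12 DMSO libraries and 15 of 17 Paclitaxel libraries correlated best with the mean of the other libraries of their own label, and those labelled DMSO 11, DMSO 12, Pac C1 and Pac H9 did not. Cdkn2a, the gene of p19ARF, had 0 counts in every library, and since all lines share the deletion this checks no label. All 8 B cell markers were detected, with a summed level of 2682 to 4992 CPM in DMSO and 1732 to 4531 CPM in Paclitaxel lines. Among them Cd79b, a chain of the B cell receptor complex, had medians of 1747 CPM in DMSO and 1099.6 CPM in Paclitaxel lines (log2 fold change -0.64, edgeR adjusted p = 0.0132 with 29 libraries and 0.00837 with 27), with 15 of 17 Paclitaxel lines below the DMSO median. Ms4a1, the gene of CD20, had a log2 fold change of -1.84 (adjusted p = 0.128 with 29 libraries and 0.0483 with 27). T cell markers summed to at most 19.4 CPM, with Cd3e and Cd4 at 0, and fibroblast markers to at most 0.521 CPM, with Col3a1 and Dcn at 0. Macrophage markers summed to at most 46.5 CPM, in Pac G9 and all of it Cd68, with Adgre1 at 0, and erythroid markers ran from 4.44 to 249.7 CPM, the highest in Pac H1 and nearly all of it Hbb-bt, with Hba-a2 at 0. Their part in the results was not tested. Lines are named by the label each library carries, and a line's name holds only as far as that label. Whether 2 labels were exchanged or all labels from DMSO 12 on, Parental included, were displaced by 1 library was not tested, and in the latter case leaving out DMSO 12 and Pac H9 would not restore the names of single lines or the Parental values. Tests are given with all 29 treated or control libraries and with the 27 that remain without DMSO 12 and Pac H9.

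In the comparison of Paclitaxel with DMSO lines, 36 of the 40 genes passed the filter on low counts and 1 of them passed an adjusted p of 0.01 in edgeR's quasi-likelihood test. That gene was Qars, which was lower in Paclitaxel lines. Of all 9445 genes tested, 2.20% passed, 1.21% as lower and 0.995% as higher in Paclitaxel lines. Leaving out each library in turn moved the 94 higher calls to between 54 (without DMSO 2) and 159 (without DMSO 11), and without DMSO 11 more genes were called higher than lower, 159 against 140. With 27 libraries, 2 of the 38 members tested lay under the threshold, Qars and Dele1, both lower, beside 3.36% of 9567 genes, 1.70% lower and 1.65% higher. Dele1 was among the reasons for doubting the 2 libraries left out, which favours its own call, and with 29 libraries it did not pass. At an unadjusted p under 0.05, 9 of the 36 members (4 lower and 5 higher) stood beside 25.1% of all genes. The members were chosen with earlier results of these data known, so these counts of members are a description. The median log2 fold change of the 36 members was 0.04, and that of all genes tested 0.07.

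**Figure D1:**
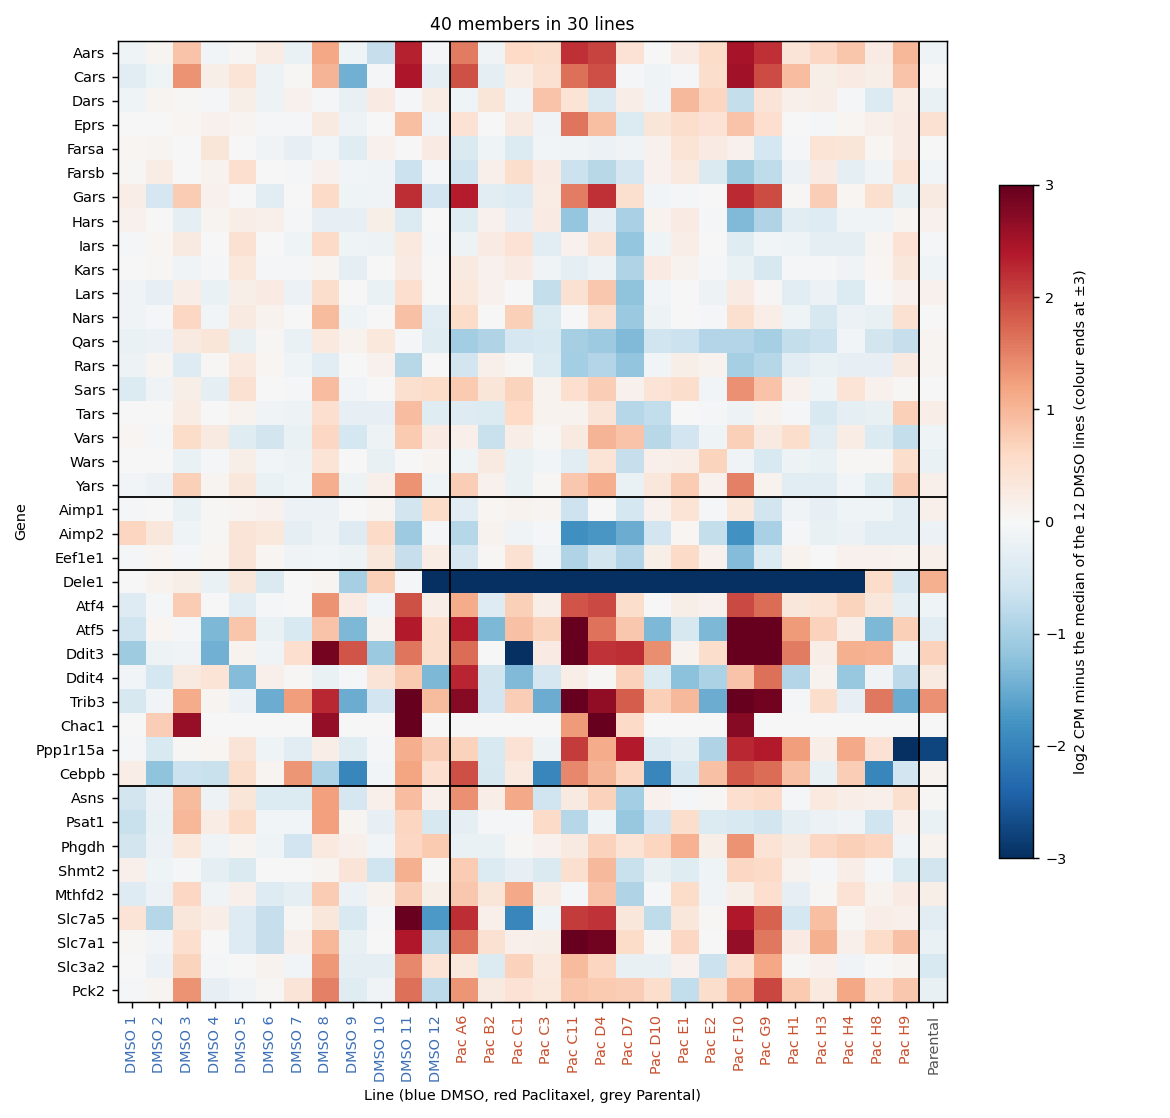
Heat map of the 40 genes (rows, in the order synthetases, complex proteins, stress regulators and supply genes) in the 30 lines (columns), coloured by log2 CPM minus the median of the 12 DMSO lines. Dele1 is dark blue in 15 of 17 Paclitaxel lines and in DMSO 12, and Aars, Cars, Gars, Atf4, Slc7a5 and Slc7a1 are red in the same 5 Paclitaxel lines and in DMSO 11.

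**Figure D2:**
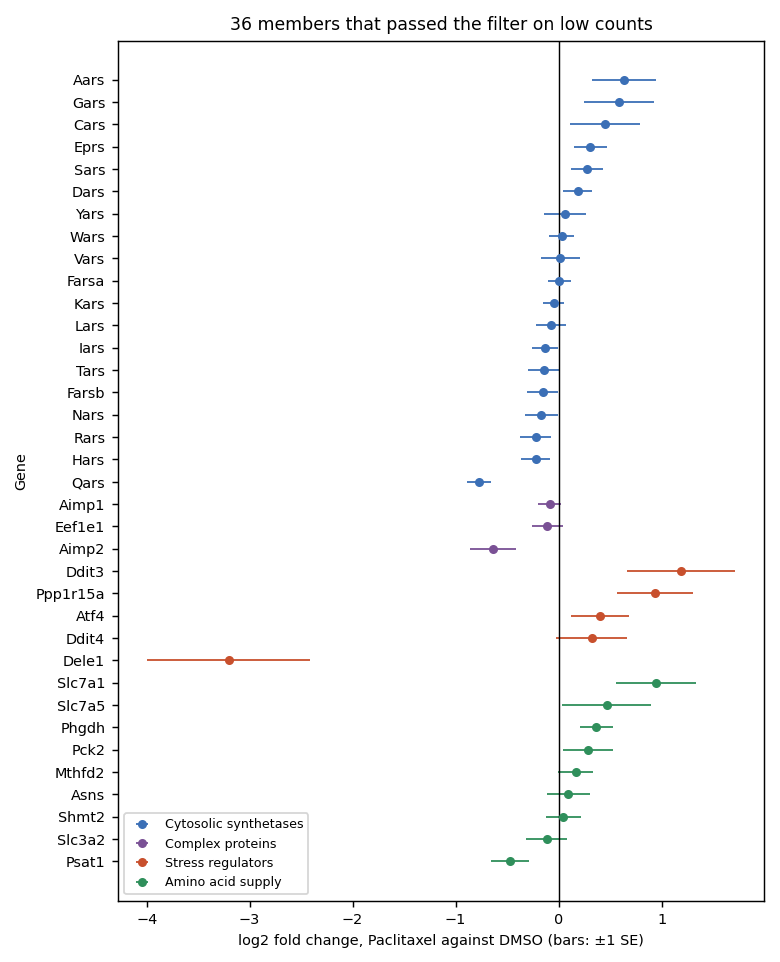
Log2 fold change of Paclitaxel against DMSO lines (x axis) for the 36 genes that passed the filter on low counts (y axis), coloured by list, with bars of 1 SE each way. Qars, at -0.77, is the synthetase farthest below 0, Dele1 lies at -3.20 and Ddit3, at 1.19, lies farthest above 0.

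Qars, the glutaminyl-tRNA synthetase gene, was lower in the Paclitaxel lines. Its level ran from 256 to 426 CPM with a median of 331 CPM in the 12 DMSO lines, and from 132 to 309.8 CPM with a median of 202 CPM in the 17 Paclitaxel lines. All 17 Paclitaxel lines lay below the DMSO median and 16 of them lay below every DMSO line, the exception being Pac H4. The means were 339 ± 59.6 CPM (SD, n = 12) in DMSO and 199 ± 42.0 CPM (SD, n = 17) in Paclitaxel lines, and the Parental line held 349.6 CPM. The fitted level in Paclitaxel lines was 58.5% of that in DMSO lines (log2 fold change -0.77, SE 0.11, edgeR adjusted p = 5.3e-05). Without the libraries labelled DMSO 12, the lowest of its group, and Pac H9, the log2 fold change was -0.82 (adjusted p = 5.4e-05). The difference kept its direction and its call under every other setting tried, with a log2 fold change between -0.84 and -0.74 and an adjusted p between 1.23e-08 and 0.000255 over those settings. In bulk RNA, a lower level per cell and fewer cells that express the gene cannot be told apart.

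Qars lies at chr9:108507706-108515941 of GRCm38 on the forward strand, and no other annotated gene overlaps it. Of the 3 tested genes on either side, looked at after its values were seen, none passed the threshold in the same edgeR test, and 1, Usp4, had an unadjusted p under 0.05. Their log2 fold changes ran from -0.30 (Usp4) to 0.37 (Ndufaf3), and that of the next gene downstream, Qrich1, was 0.00 (SE 0.29, adjusted p = 0.998).

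None of the other 18 cytosolic synthetases passed the threshold in this comparison. Their log2 fold changes ran from -0.22 to 0.64, and the median over all 19 was 0.01, beside 0.07 over all genes tested. Aars (alanine) had the largest of these, 0.64 (SE 0.31, adjusted p = 0.199), followed by Gars (glycine) at 0.59 (SE 0.34, adjusted p = 0.279) and Cars (cysteine) at 0.45 (SE 0.34, adjusted p = 0.426). Eprs (0.31), Sars (0.28) and Dars (0.18) also had values above that of the median gene, and Yars (0.06), Wars (0.03), Vars (0.02) and Farsa (0.01) were close to 0. Kars (-0.05), Lars (-0.08), Iars (-0.13), Tars (-0.15), Farsb (-0.16), Nars (-0.17), Rars (-0.22) and Hars (-0.22) were below 0. Rars and Hars were lowest in DMSO 11 among DMSO lines. Rars stood at 239 CPM in DMSO 11, against a DMSO median of 424 CPM, and at 186 to 233 CPM in Pac D7, Pac C11, Pac F10, Pac D4 and Pac G9.

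Aimp1, Aimp2 and Eef1e1 encode proteins of the multi-synthetase complex, which holds several cytosolic synthetases together, glutaminyl-tRNA synthetase among them. None passed the threshold, and their log2 fold changes were -0.09, -0.64 and -0.11. Aimp2 ran from 11.4 to 39.3 CPM (median 24.8 CPM) in DMSO lines and from 6.56 to 26.7 CPM (median 19.8 CPM) in Paclitaxel lines. The groups overlapped, and 15 of 17 Paclitaxel lines lay below the DMSO median (SE 0.22, edgeR adjusted p = 0.0723 with 29 libraries and 0.0769 with 27). The lowest DMSO line was DMSO 11, and the lowest Paclitaxel lines were Pac C11, Pac F10, Pac D4 and Pac D7, at 6.56 to 8.44 CPM. Aimp2 overlaps Eif2ak1, the gene of HRI, on the opposite strand, and the strand setting of the counting is not given in the sources used here.

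Dele1 (chr18:38250255-38265461, GRCm38) was near 0 in most Paclitaxel lines. The 12 DMSO libraries held 5 to 70 counts, except that labelled DMSO 12 with 0 counts. Of the 17 Paclitaxel libraries, 13 held 0 counts, 2 held 1 count (Pac B2 and Pac G9), Pac H8 held 30 and Pac H9 held 8. The Parental library held 38 counts. The groups therefore overlapped through 3 libraries, of which DMSO 12 and Pac H9 were also nearer to the other label over all genes. At the summed rate of the 12 DMSO libraries, a CPM of 10.00 by library total, the Paclitaxel libraries would have held 4.81 to 66.8 counts each. A count of 0 allows up to 3 counts, which is 0.449 CPM in Pac H4 and 6.24 CPM in Pac C1, so the 0 of the smallest library allows a level like the 4.74 CPM of DMSO 9. These limits cover counting error only.

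With all 29 libraries the log2 fold change of Dele1 was -3.20 (SE 0.79) and the edgeR adjusted p was 0.0102, just above the threshold of 0.01. Without the libraries labelled DMSO 12 and Pac H9 it was -3.73 with an adjusted p of 0.00194. These libraries were doubted in part for their Dele1 counts, so leaving them out selects on the outcome, and this p is a description that does not support a call. Leaving out DMSO 12 alone gave -3.33 (adjusted p = 0.00533), Pac H9 alone -3.60 (adjusted p = 0.00425) and Pac H8 alone -5.30 (adjusted p = 1.58e-05), and the same holds for these, the 3 libraries whose Dele1 counts went against their labels. DESeq2 gave -4.07 (adjusted p = 0.00107) and edgeR's likelihood ratio test -2.87 (adjusted p = 0.0334). An antisense transcript, 1700086O06Rik, overlaps Dele1. The 3 tested genes before and the 3 after Dele1 on the chromosome, also looked at after its values were seen, had log2 fold changes of -0.22 to 0.53, and none passed. Rnf14, the nearest tested gene downstream, was among the highest of them at 0.53 (SE 0.16, adjusted p = 0.0322).

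**Figure D3:**
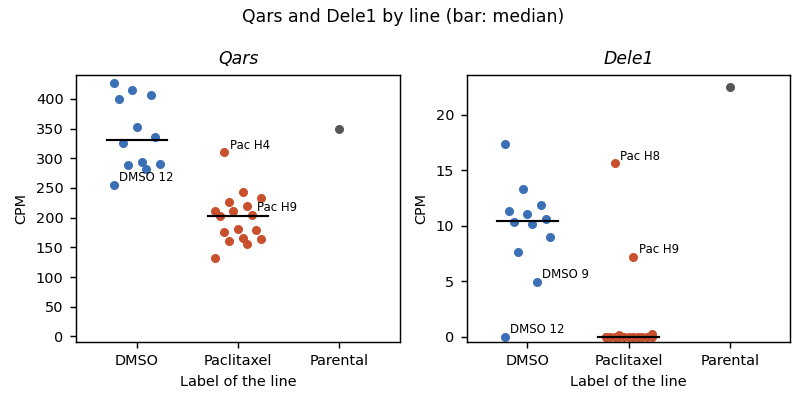
CPM of Qars (left) and Dele1 (right) on linear y axes, with 1 point per line by the label of its library (x axis) and a bar at the group median. In Qars 16 of 17 Paclitaxel points lie below all DMSO points, with Pac H4 above, and in Dele1 the Paclitaxel points lie at or near 0 except Pac H8 and Pac H9, as does DMSO 12.

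Apart from Dele1, 4 of the 9 stress regulators could be tested, and 0 of these passed by edgeR's quasi-likelihood test, edgeR's likelihood ratio test or DESeq2. Ddit3 and Ppp1r15a had an unadjusted p under 0.05 by the first of these, as did 25.1% of all genes tested. Atf4, whose product is the main transcription factor of the pathway, stood at 87.9 to 432 CPM (median 114 CPM) in DMSO lines and at 87.0 to 454 CPM (median 152 CPM) in Paclitaxel lines. The ranges were almost the same, with a log2 fold change of 0.40 (SE 0.28, adjusted p = 0.373). Ddit3, which encodes the ATF4-induced factor CHOP, ran from 2.25 to 55.2 CPM (median 7.11 CPM) in DMSO and from 0 to 113 CPM (median 15.5 CPM) in Paclitaxel lines. Its log2 fold change was 1.19 (SE 0.52, adjusted p = 0.155), with 14 of 17 Paclitaxel lines above the DMSO median. Ddit3 overlaps Mars, another synthetase gene, on the opposite strand, so reads of the pair may not have been separated.

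Ppp1r15a encodes GADD34, which directs the removal of the phosphate from eIF2. It stood at 11.0 to 33.0 CPM (median 15.3 CPM) in DMSO and at 0.900 to 82.1 CPM (median 20.8 CPM) in Paclitaxel lines, with a log2 fold change of 0.93 (SE 0.37, adjusted p = 0.111). 7 Paclitaxel lines lay above every DMSO line. Pac H9 held 1 count and Parental 3 counts of Ppp1r15a, the lowest levels of all 30 lines, and without DMSO 12 and Pac H9 the log2 fold change was 1.05 (adjusted p = 0.0432). Ddit4, which encodes the mTORC1 inhibitor REDD1, ran from 4.02 to 19.8 CPM in DMSO and from 4.15 to 56.4 CPM in Paclitaxel lines (log2 fold change 0.32, SE 0.35, adjusted p = 0.590). Its highest values were in Pac A6 and Pac G9, at 56.4 and 36.2 CPM, and the medians, 11.2 CPM in DMSO and 8.21 CPM in Paclitaxel lines, were in the opposite order to the fold change. The fold change moved most with those lines, to 0.04 (adjusted p = 0.942) without Pac A6 and to 0.14 (adjusted p = 0.834) without Pac G9.

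Atf5, Trib3, Chac1 and Cebpb did not pass the filter on low counts, so no fold change is given for them with 29 libraries. Trib3, a pseudokinase induced by ATF4, had 676 counts in all 30 libraries, of which 145 were in DMSO 11, 139 in Pac C11, 112 in Pac F10 and 71 in Pac G9. Atf5, a transcription factor under the same translational control as Atf4, had 643 counts, of which 202 were in Pac F10, 193 in Pac C11, 95 in Pac G9 and 48 in DMSO 11. Most counts of each gene thus came from a few libraries of both labels. Chac1, a glutathione-degrading enzyme, had 109 counts in all and 0 in 22 libraries. Its counts were 37 in DMSO 11, 23 in Pac D4, 18 in Pac F10, 14 in DMSO 3, 10 in DMSO 8, 4 in Pac C11, 2 in DMSO 2 and 1 in Pac D7. Cebpb, a partner of ATF4 on DNA, had 313 counts and lay at 0 to 7.69 CPM.

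Aars, Cars, Gars, Atf4, Slc7a5 and Slc7a1 were high in the same few lines, and those lines carried both labels. A member was counted as raised in a line where its log2 CPM was more than 1 above the DMSO median. Aars, Cars, Gars, Atf4 and Slc7a5 were each raised in exactly 5 Paclitaxel lines, and these were the same for all of them, Pac A6, Pac C11, Pac D4, Pac F10 and Pac G9. Slc7a1 was raised in these and in Pac H3. Among the DMSO lines, DMSO 11 was raised in all of these genes, and DMSO 8 in Aars, Cars, Atf4 and Slc7a1. DMSO 3 was raised in Cars, at 78.1 CPM beside 62.2 CPM in DMSO 8. Other stress regulators were raised in other sets of lines. Ddit3 was raised in 10 Paclitaxel and 3 DMSO lines, Ppp1r15a in 7 Paclitaxel lines, Pac A6 not among them, and in DMSO 11, Ddit4 in Pac A6 and Pac G9, and Dele1 in no DMSO or Paclitaxel line and in the Parental line. In Aars, for example, the 12 DMSO lines had a median of 58.7 CPM with DMSO 11 at 292 CPM and DMSO 8 at 131 CPM, and the 17 Paclitaxel lines had a median of 89.3 CPM with these 5 lines at 173 to 328 CPM. In Gars the DMSO median was 83.9 CPM with DMSO 11 at 394 CPM, and the 5 Paclitaxel lines stood at 243 to 432 CPM. Without DMSO 11 the log2 fold change of Paclitaxel against DMSO was 1.05 for Aars (edgeR adjusted p = 0.0191) and 0.70 for Atf4 (adjusted p = 0.0827), and neither passed. DMSO 11 was the highest DMSO line in both genes, so leaving it out selects on the outcome. With each library left out in turn, the log2 fold change ran from 0.48 to 1.05 for Aars (edgeR adjusted p up to 0.353). For Atf4 it ran from 0.28 to 0.70 (edgeR adjusted p up to 0.567). The raised lines were singled out by the values above, so their distance from the others is a description and was not tested.

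**Figure D4:**
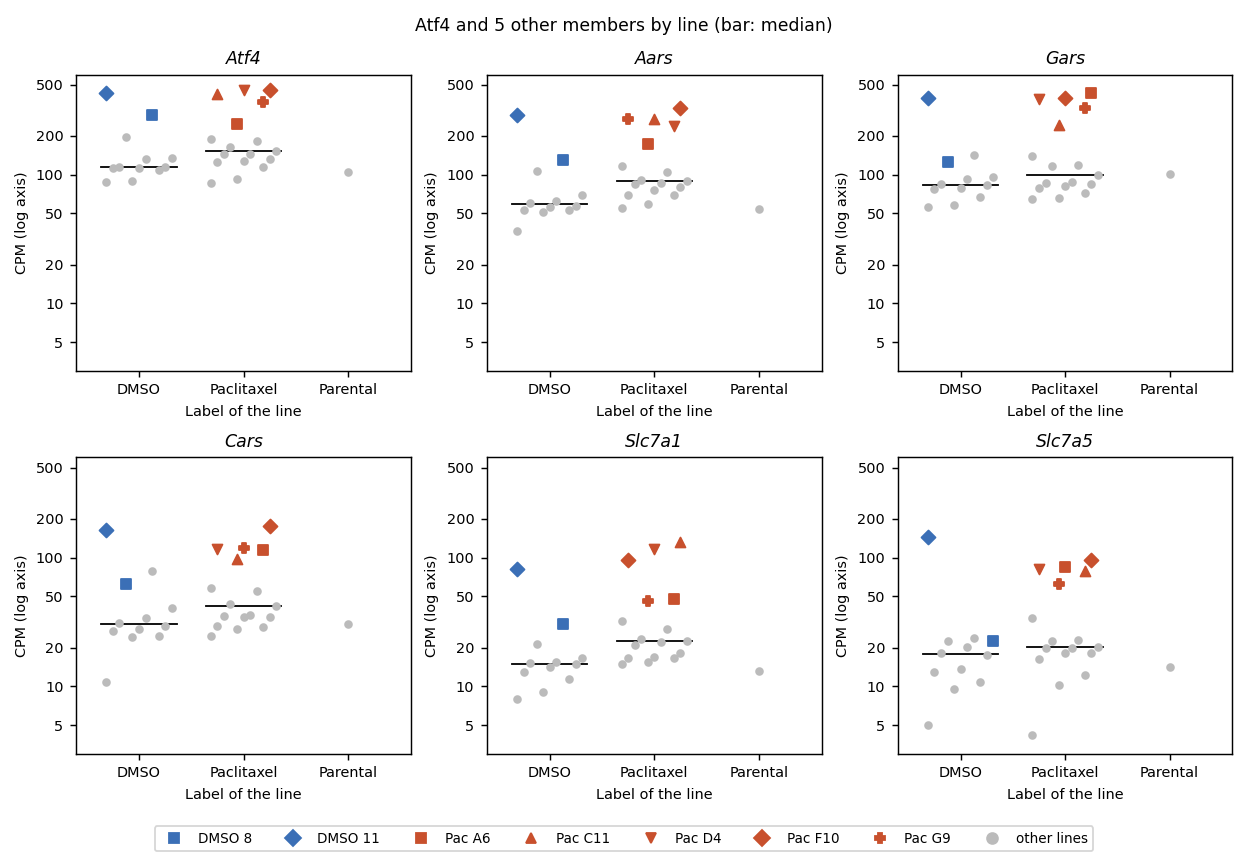
CPM of Atf4, Aars, Gars, Cars, Slc7a1 and Slc7a5 on log y axes, with 1 point per line by the label of its library (x axis) and a bar at the group median. In all 6 panels the 5 Paclitaxel lines with symbols of their own are the highest of their label and DMSO 11 (blue diamond) is the highest DMSO line, while DMSO 8 (blue square) lies below DMSO 3 in Cars and Gars and is not raised in Gars or Slc7a5.

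Over the 36 tested members, 9 to 12 were raised in each of these 7 lines, and 0 to 3 in each of the other 23. Pac F10 and DMSO 11 had 12 raised members each, Pac G9 11, Pac A6, Pac D4 and DMSO 8 10 each, and Pac C11 9. These counts stand beside a wider departure of the same libraries from the DMSO lines. Of all 9445 genes tested, 15.1% to 23.4% were raised by the same measure in 6 of the 7 lines, where 25% to 33.3% of the members were, and 2.91% in DMSO 8, where 27.8% of the members were. In the other 23 lines 0.635% to 15.9% of all genes were raised, the highest share being that of Pac D7, with 2 raised members. The correlation with the DMSO mean over all genes was 0.838 in Pac F10, 0.860 in Pac C11, 0.873 in Pac D4, 0.884 in Pac A6, 0.891 in Pac G9, 0.912 in DMSO 11 and 0.966 in DMSO 8. The part of this departure in the members' values was not tested. In 4 of the 7 lines, DMSO 11, Pac C11, Pac D4 and Pac F10, Aimp2 lay below the DMSO median by more than 1 on the log2 scale, as it did in Pac D7, whereas DMSO 8 had 0 members that far below. Pac D7 stood apart from the 7 lines, with Ddit3 and Ppp1r15a raised but Asns, Psat1, Iars, Lars, Nars, Rars, Qars, Aimp2 and Dele1 lower by more than 1. Library totals of the 7 lines ran from 2640319 counts (Pac A6) to 6739131 (DMSO 11), and Pac H4, with 6682169 counts, had 3 raised members. Genes of the mitochondrial genome made up 12.4% of counts in DMSO 11, 11.9% in Pac D4, 10.1% in Pac C11 and 7.39% in DMSO 8, and 2.29% in Pac F10, 2.49% in Pac A6 and 3.84% in Pac G9. In the other 23 lines that share ran from 1.34% to 4.74%. The part of this share in the pattern was not tested, and 3 of the 7 lines had it within the range of the others. The subpool in which each library was made is not given in the sources used here.

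**Figure D5:**
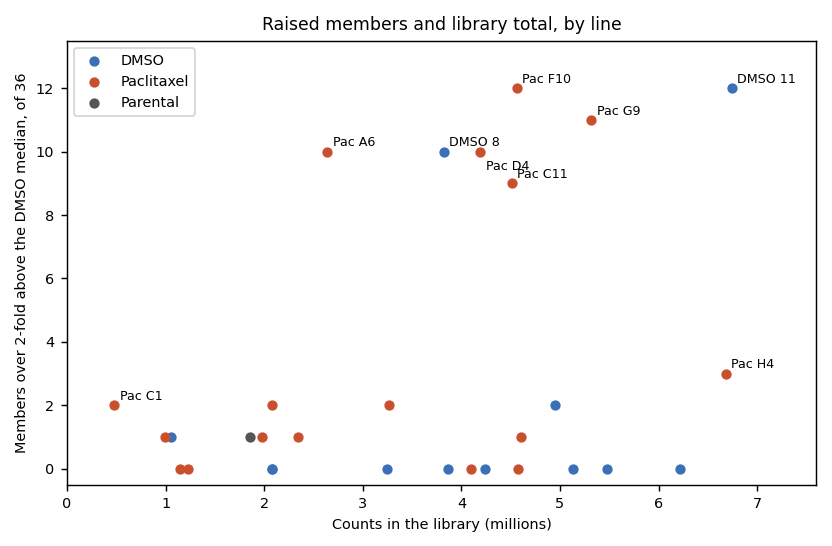
Number of the 36 tested members more than 2-fold above the DMSO median in each line (y axis) against the total counts of its library (x axis, in units of 1000000), coloured by label. 7 lines of both labels hold 9 to 12 such members and all others at most 3, and Pac H4, at 6682169 counts, holds 3.

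The promoters of the members were searched for the composite site on which ATF4 binds with a C/EBP partner. The site was spelled TGATGNAA, with TTNCATCA on the other strand. RefSeq promoters (250 bases before to 50 after a start site, GRCm38.p6) were found for 31 of the 40 members by symbol, identifier or synonym. The spelling occurred in 9 of these 31 genes, 29% of them, and in 3.97% of all 32851 promoters, where a gene with several start sites has several promoters. The 9 genes were Aars, Asns, Chac1, Gars, Iars, Pck2, Tars, Trib3 and Yars. The narrower spelling TGATGCAA, which is contained in the first, occurred in 5 of them (Aars, Chac1, Iars, Tars and Yars) and in 0.895% of all promoters. The E-box CACGTG, on which MYC binds, occurred in 4 members (Aars, Farsb, Iars and Tars) and in 7.15% of all promoters, and the cyclic AMP response element TGACGTCA in Ppp1r15a and in 1.79% of all. A match is a run of letters and not a measured binding site. The 200 bases before the RefSeq start site are printed for 5 genes with a match there and for Qars, which has none there, with matches to TGATGNAA on either strand in capitals. They lie at chr8:111033642-111033841 for Aars, chr6:55037801-55038000 for Gars, chr6:7693210-7693409 for Asns (reverse strand), chr14:55540066-55540265 for Pck2, chr2:119351042-119351241 for Chac1 and chr9:108507805-108508004 for Qars, the others on the forward strand.
Aars: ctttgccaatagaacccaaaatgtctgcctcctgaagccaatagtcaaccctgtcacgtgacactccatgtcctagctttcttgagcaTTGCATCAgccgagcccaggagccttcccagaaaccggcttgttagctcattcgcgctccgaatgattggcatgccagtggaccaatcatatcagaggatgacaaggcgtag
Gars: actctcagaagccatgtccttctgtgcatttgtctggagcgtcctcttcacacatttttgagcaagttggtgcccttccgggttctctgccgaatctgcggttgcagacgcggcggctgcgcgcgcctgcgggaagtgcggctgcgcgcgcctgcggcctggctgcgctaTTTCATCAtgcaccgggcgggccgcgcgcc
Asns: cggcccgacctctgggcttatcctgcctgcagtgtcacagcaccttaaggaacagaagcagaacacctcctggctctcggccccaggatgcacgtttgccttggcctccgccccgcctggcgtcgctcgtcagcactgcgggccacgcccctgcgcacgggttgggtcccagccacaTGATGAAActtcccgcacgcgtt
Pck2: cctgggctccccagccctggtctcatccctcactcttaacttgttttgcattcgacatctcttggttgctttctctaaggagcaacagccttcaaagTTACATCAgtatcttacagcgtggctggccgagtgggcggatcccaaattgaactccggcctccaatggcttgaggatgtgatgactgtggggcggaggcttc
Chac1: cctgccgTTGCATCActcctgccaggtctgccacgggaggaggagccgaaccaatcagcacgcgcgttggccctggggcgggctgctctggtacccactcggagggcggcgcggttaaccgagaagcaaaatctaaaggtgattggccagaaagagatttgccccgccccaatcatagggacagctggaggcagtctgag
Qars: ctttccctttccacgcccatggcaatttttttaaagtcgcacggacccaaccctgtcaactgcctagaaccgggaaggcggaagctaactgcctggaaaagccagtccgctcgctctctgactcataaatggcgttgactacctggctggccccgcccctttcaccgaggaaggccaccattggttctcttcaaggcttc
The matches begin 112 bases before the RefSeq start site in Aars, 30 in Gars, 23 in Asns, 103 in Pck2 and 193 in Chac1. For some genes the RefSeq start differs from the annotated start used for positions above. The stretches printed for Aars and Qars lie inside the annotated genes, as do the windows searched for Psat1, Mthfd2 and Slc3a2. A lack of a match in Qars, Psat1, Mthfd2 and Slc3a2 thus does not describe the bases before their annotated starts. Aars and Gars were raised in 7 and 6 of the lines named above, whereas Asns was raised in DMSO 8, Pac A6 and Pac C1 only, Pck2 in 5 of the 7 lines and in DMSO 3 and Pac H4, Yars in 4 of the 7, and Tars and Iars, which also hold the spelling, were raised in none. Atf4 and Slc7a1, raised in all 7 of these lines, do not hold the spelling in this window. No promoter was found for Cars and Slc7a5, high in the same lines, so they were not searched. The same holds for Hars, Lars, Nars, Rars, Vars, Wars and Dele1.

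None of the 9 genes of amino acid supply passed the threshold, by edgeR's quasi-likelihood test, its likelihood ratio test or DESeq2. In the first of these tests 3 (33.3%) had an unadjusted p under 0.05, beside 25.1% of all genes tested. Asns, asparagine synthetase and a standard reporter of ATF4 activity, stood at 236 to 822 CPM (median 349.6 CPM) in DMSO and at 172 to 900.3 CPM (median 401 CPM) in Paclitaxel lines. Its groups overlapped almost fully (log2 fold change 0.09, SE 0.21, adjusted p = 0.810). Psat1 makes phosphoserine in serine synthesis. It stood at 362 to 1353 CPM (median 575 CPM) in DMSO and at 263 to 856 CPM (median 478 CPM) in Paclitaxel lines, with 14 of 17 Paclitaxel lines below the DMSO median and its highest values in DMSO 8 and DMSO 3 (log2 fold change -0.47, SE 0.18, adjusted p = 0.1099). Phgdh, the first enzyme of the same route, had the opposite sign, at 123 to 315 CPM (median 184 CPM) in DMSO and 159 to 470.4 CPM (median 244 CPM) in Paclitaxel lines (log2 fold change 0.36, SE 0.16, adjusted p = 0.156). Without DMSO 12 and Pac H9 these were -0.55 (adjusted p = 0.0639) for Psat1 and 0.46 (adjusted p = 0.0591) for Phgdh.

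Slc7a1, the cationic amino acid transporter CAT1, ran from 8.04 to 82.1 CPM (median 14.99 CPM) in DMSO and from 14.8 to 132 CPM (median 22.4 CPM) in Paclitaxel lines. It lay above the DMSO median in 16 of 17 Paclitaxel lines (log2 fold change 0.94, SE 0.39, adjusted p = 0.125). Slc7a5, the light chain of the large neutral amino acid transporter, ran from 5.02 to 143 CPM (median 17.8 CPM) in DMSO and from 4.15 to 95.9 CPM (median 20.3 CPM) in Paclitaxel lines (log2 fold change 0.47, SE 0.43, adjusted p = 0.517). DMSO 11 was the highest line of all, and without it the log2 fold change was 1.27 and the adjusted p 0.0267. Leaving out the highest DMSO line selects on the outcome, so this p is a description. With each library left out in turn, the log2 fold change of Slc7a5 ran from 0.29 to 1.27 (edgeR adjusted p from 0.0267 to 0.719). Its heavy chain partner Slc3a2 (-0.12), the mitochondrial serine and folate enzymes Shmt2 (0.05) and Mthfd2 (0.16) and the mitochondrial phosphoenolpyruvate carboxykinase Pck2 (0.29) had log2 fold changes between -0.12 and 0.29. Pck2 lay above the DMSO median in 16 of 17 Paclitaxel lines (SE 0.24, adjusted p = 0.477).

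Whether Asns moved with other members from line to line was asked within each label, over 14 pairs in all, on log2 CPM with permutation tests of 100000 resamples (two-sided). In the 12 DMSO lines, Pearson's r with Asns was 0.85 for Chac1 (permutation p = 0.00318), 0.83 for Psat1 (p = 0.00117, permutation), 0.78 for Atf4 (p = 0.00357, permutation), 0.74 for Trib3 (p = 0.00558, permutation) and 0.73 for Aars (p = 0.00572, permutation). These 5 pairs had an adjusted p of 0.016, and Ddit3 (r = 0.48) and Slc7a5 (r = 0.45) did not pass 0.05. By Spearman's rho these 5 pairs ran from 0.54 (Atf4) to 0.69 (Psat1), with permutation p from 0.0174 to 0.0757, and none passed after adjustment (the lowest adjusted p was 0.0611). Without DMSO 8 and DMSO 3, the lines farthest from the median of Asns, r ran from 0.61 to 0.73 over the 5 pairs and the permutation p from 0.0207 to 0.0677, and none passed after adjustment. The call after adjustment was thus lost without those lines, with n lower by 2 and r still above 0.6. With every library thinned to the smallest total, Trib3 (r = 0.41, permutation, adjusted p = 0.426) and Atf4 (r = 0.66, permutation, adjusted p = 0.0521) also lost it.

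In the 17 Paclitaxel lines, none of the 7 pairs passed after adjustment by Pearson's r, which ran from -0.15 (Ddit3) to 0.45 (Aars, permutation p = 0.0686). By rank, Aars was the only pair of either label to pass, with rho = 0.68 (permutation p = 0.00304, adjusted p = 0.0426), followed by Atf4 with rho = 0.57 (permutation p = 0.0198, adjusted p = 0.0611). For Psat1, r was 0.10 in Paclitaxel lines (permutation p = 0.699), and -0.30 without Pac D7 and Pac A6, the lines farthest from the median of Asns (permutation p = 0.272). Whether any correlation differed between the labels was not tested. Chac1 had 0 counts in 22 libraries and Trib3 in 5, and their totals over all libraries were 109 and 676 counts. Such low counts limit what their correlations can show.

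The spread between lines was larger in Paclitaxel than in DMSO lines for 31 of 36 members (86.1%), as it was for 87.2% of all genes tested, a share close to that of the members. The median SD of log2 CPM over members was 0.42 in DMSO and 0.48 in Paclitaxel lines, beside 0.46 and 0.68 over all genes. For the synthetases the count was 18 of 19, with median SDs of 0.28 and 0.46, and for the supply genes 5 of 9, with median SDs of 0.59 and 0.48. With every library thinned to the smallest total, the count over members was 26 of 36. The share of all genes at that setting is not given here, so this lower count cannot be read as particular to the members.

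The 7 further lists of related biology held 106 genes, each counted once, of which 89 were tested and 0 passed an adjusted p of 0.01 by edgeR's quasi-likelihood test. Of these, 20 (22.5%) had an unadjusted p under 0.05, 5 lower and 15 higher, beside 25.1% of all genes, 962 lower and 1406 higher. EdgeR's likelihood ratio test called 3 of the 89 and DESeq2 4, beside 448 and 491 of all 9445 genes. The median log2 fold change over the 89 genes was 0.13, beside 0.07 over all genes. Of 17 mitochondrial synthetases, 14 (82.4%) had a value above 0 (median 0.23), beside 5343 of all 9445 genes (56.6%). Pars2, the mitochondrial prolyl-tRNA synthetase, had the lowest p of them, with medians of 11.4 CPM in DMSO and 20.9 CPM in Paclitaxel lines (log2 fold change 0.72, SE 0.20, adjusted p = 0.0250). Of the 16 eIF2 kinases and control factors, the lowest p was that of Eif2b2, a subunit of the exchange factor of eIF2, with medians of 125 and 63.0 CPM (log2 fold change -0.83, SE 0.23, adjusted p = 0.0222) and 16 of 17 Paclitaxel lines below the DMSO median.

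Among other ATF4 targets and the one-carbon and folate genes, the lowest p was in each case that of Psph, the last enzyme of serine synthesis, which is in both lists. Its medians were 158 CPM in DMSO and 84.2 CPM in Paclitaxel lines (log2 fold change -0.95, SE 0.27, adjusted p = 0.0237), the same sign as Psat1 and the opposite of Phgdh. Of 10 tested amino acid transporters, Slc38a1, which carries glutamine, had the lowest p, with medians of 19.5 CPM in DMSO and 43.3 CPM in Paclitaxel lines (log2 fold change 0.95, SE 0.25, adjusted p = 0.0179). Among the endoplasmic reticulum and mitochondrial unfolded protein lists the lowest p-values were those of Pdia3 (log2 fold change 0.31, SE 0.11, adjusted p = 0.0689) and Trap1 (-0.46, SE 0.14, adjusted p = 0.0448). Leaving out DMSO 11 brought Slc38a1 past the threshold (adjusted p = 0.00445), and leaving out Pac H4 brought Slc38a1 (adjusted p = 0.00896) and Eif2b2 (adjusted p = 0.0038) past it. With 27 libraries 0 of the 89 passed.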

How the data were processed

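Libraries were made from 30 cell lines, with a barcode for each line and a random molecular identifier. The authors aligned reads with STAR 2.5.1b to GRCm38 (mm10), per the submitters' processing notes, and deposited whole-number counts per gene without normalization or filter. Whether identifiers were collapsed, the strand setting of the counting and the subpool of each line are not given in the sources used here. No column of per-sample values was left unused (0). A symbol was found for 55141 of 55401 gene identifiers. Positions and overlapping genes are those of a gencode annotation of GRCm38, in which 22 of 40 members overlap another gene.

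Paclitaxel was compared with DMSO lines with the quasi-likelihood F test of edgeR 4.0.16 under R 4.3.3, after filterByExpr and TMM scaling, with Benjamini-Hochberg adjustment over all genes tested and a threshold of 0.01, on the deposited counts of 29 libraries, with Parental left out of the fit. SEs were computed from the F statistic. CPM used TMM factors, and log2 CPM a prior count of 2. Members and lists were chosen with earlier results of these data known. Members that passed, a fixed set of 13 and the gene of lowest p in each further list were given in full. Line totals of 480919 to 6739131 counts limit precision for low genes. The edgeR p-values set the difference between labels against the variation within them. With 1 library per line, variation between lines cannot be told apart from variation between libraries. Other settings were DESeq2 1.42.0, the likelihood ratio test of edgeR, RLE and upper quartile factors, other filters, a threshold of 0.05, log10 library total as a covariate, thinning, libraries under 1000000 counts left out, each library left out in turn, and DMSO 12 and Pac H9 left out. DMSO 12 and Pac H9 were chosen from earlier results of these data (Dele1, Abcb1b and the nearest label over all genes), and DMSO 11, DMSO 12, Pac C1 and Pac H9 left out together was chosen after seeing the data. Correlations were computed with numpy 2.4.6. The code was tested on simulated data.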

Additional observations from a re-analysis of the deposited data

How the results depend on the processing

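The call of Qars kept its direction and its side of the threshold under all alternatives. The count of members called was 1, and 2, with Dele1 added, under 6 alternatives: without DMSO 12 and Pac H9, DESeq2, upper quartile factors, an adjusted p under 0.05, log10 library total as a covariate, and without DMSO 11, DMSO 12, Pac C1 and Pac H9. Among stress regulators the count went from 0 to 1 under the same 6. Leaving out each library in turn gave 1 to 2 members and 0 to 1 stress regulators. The number of synthetases (1) and of supply genes (0) called was the same throughout. The count over the further lists went from 0 to 3 with the likelihood ratio test, 4 with DESeq2, 5 at an adjusted p under 0.05 and 2 without DMSO 11, DMSO 12, Pac C1 and Pac H9, and lay at 0 to 2 with each library left out. Over all 9445 genes the calls went from 208 to 448, 491 and 714 in the first 3 of these settings. The cause was not tested.

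Over all genes, 208 were called (114 lower and 94 higher), 139 to 299 with each library left out (without DMSO 4 and without DMSO 11), against 321 without DMSO 12 and Pac H9, 448 with the likelihood ratio test, 491 with DESeq2 (224 lower and 267 higher), 491 without the 4 libraries, 714 at an adjusted p under 0.05, 322 of 18297 with a total of 10 counts as the only filter, and 131 of 5188 after thinning, where fewer genes are tested. Dele1 could not be fitted after thinning or with the filter of 10 counts in each of 12 libraries, which it did not pass. Of the 14 correlations with Asns, 5 passed, as they did without DMSO 12 and Pac H9 and with a prior count of 0.5, 6 in CPM without TMM factors, where that with Aars in Paclitaxel lines was added (r = 0.59, permutation, adjusted p = 0.0277), 3 after thinning, where those with Trib3 and Atf4 in DMSO lines were lost, and 0 without the 2 lines farthest from the median of Asns. That with Psat1 in Paclitaxel lines changed sign to -0.30 without those lines, and that with Ddit3 to 0.039 in CPM without TMM factors. The spread count over members moved to 26 at the lowest, with no share of all genes at that setting given beside it. No paired analysis was possible because DMSO lines are numbered and Paclitaxel lines are named by well.

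Depth limits the low genes: Atf5, Trib3, Chac1 and Cebpb were at 0 counts in some libraries, and at the smallest total 0 counts of Dele1 allow up to 6.24 CPM.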
